A study of Mus musculus with 15 samples.

Results

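The ventricles of 3 mice were profiled after 12 hours of Celf1 induction and compared with those of 3 control mice, which makes 6 of the 15 hearts in the series. The groups were taken from the labels, and the comparison covers all 16042 genes of the table, of which 10868 had a mean of at least 1 RPKM (reads scaled for transcript length and for the number of mapped reads) over the 15 hearts and were tested. All mice were 20 to 22 weeks old and carried the reverse tetracycline activator under the alpha myosin heavy chain promoter, which is active in heart muscle cells (strain label MHCrtTA), and all received food with 2 g/kg doxycycline. The 12 hour mice (MHCrtTA/TRECUGBP1) also carried a tetracycline-responsive cassette for the LYLQ isoform of human Celf1 with a Flag tag at its N terminus. The control mice lacked that cassette and had been on doxycycline for 72 hours, so that genotype and time on doxycycline differ together between the groups and cannot be told apart. The cages were without food for the last 2 to 3 hours before the change to doxycycline food. The labels give no separate origin for the mice beyond their numbers, and the hour of day at harvest is not given in the sources used here, so that hour and group cannot be told apart.

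CELF1 is an RNA-binding protein that regulates alternative splicing and the decay and translation of mRNAs that carry GU-rich elements, and it is raised in the heart in myotonic dystrophy type 1. The circadian clock, to which many of the genes below belong, is a feedback loop. ARNTL (also called BMAL1) pairs with CLOCK or NPAS2 and activates genes through E-boxes, the PER and CRY proteins repress that pair, and the nuclear receptors of the ROR and NR1D families act in opposite ways on Arntl itself. DBP, TEF and HLF are transcription factors that the loop drives and that bind D-boxes, with NFIL3 as their competitor. The heart runs this loop in its own muscle cells.

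After 12 hours, 43 genes rose and 156 fell. Besides Celf1, the largest rises were in the clock activator Arntl and in Spon2, Myh3 and Cox20, and the largest falls were in Dbp, Cebpb, Per2 and Mrfap1. A gene was called where the Benjamini-Hochberg adjusted p of limma was below 0.05 with the same sign on 2 scales, log2(RPKM + 1) as deposited and the same after each library was divided by its median ratio to a common reference (the centred scale). The 199 called genes were 1.83% of those tested, with 0.396% higher and 1.44% lower. These are the shares to set beside the counts of called genes in each list below. No list was tested for an excess of calls. Unless another scale is named, log2 differences below are 12 hours minus control on the centred scale, with the standard error of the fit (n = 3 and 3). They understate the change of genes with low RPKM because of the pseudocount of 1. The adjusted p printed for the main fit is that of the centred scale unless another scale is named. For the alternative fits, among them those with a mouse left out, it is the larger of the 2 scales.

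Both scales were needed because the 12 hour libraries lay below the controls as a whole. The median log2 difference over the tested genes was -0.30 as deposited and 0.01 after centring. The library factors were 1.09, 1.14 and 1.12 in the controls and 0.84, 0.94 and 0.83 at 12 hours. On the deposited scale alone 1432 genes were called (13.2%), 57 higher and 1375 lower, whereas on the centred scale alone 229 were called (2.11%), 73 higher and 156 lower. Asking for both scales thus took away 30 of the centred calls, all of them rises, and left 43 rises beside 156 falls. The excess of falls among the called genes therefore rests in part on the rule. After correction for GC content the counts were 63 higher and 110 lower. All 199 genes called on both scales had their 3 values at 12 hours on 1 side of the 3 control values on each scale. On the centred scale this holds for 34.4% of all tested genes, 1992 above and 1750 below. On the deposited scale, that of the RPKM values printed below, it holds for 500 genes above and 4677 below, of 10868 tested. Of the called genes, 39 were more than 1 log2 unit higher and 62 more than 1 log2 unit lower.

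**Figure D1:**
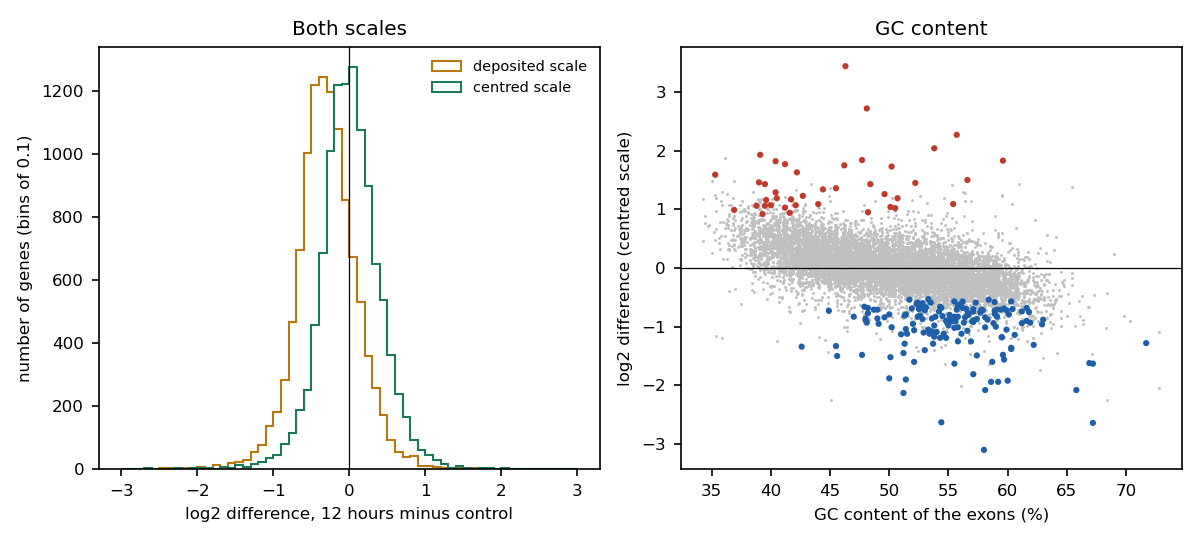
Left, the number of tested genes by log2 difference (12 hours minus control) on the deposited and on the centred scale; the deposited curve is centred on -0.30 and the centred curve on 0.01. Right, the centred log2 difference of each gene against the GC content of its exons in percent, with genes that rose in red and genes that fell in blue; the red points lie towards low and the blue points towards high GC content.

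The calls depended on single libraries and on a code in the column headers. Without 1 control mouse, 72 (A3250 left out), 36 (A3259) or 45 (A3280) genes were called, and without 1 of the 12 hour mice 106 (A3258), 93 (A3252) or 86 (A3276), with 32 genes called in all 6 of these fits. The meaning of that 6-digit code is not stated. The controls share theirs with 1 heart of the 72 hour group and with no 12 hour heart, so that code and group are linked through that 1 heart only. The 12 hour heart A3252 has a code that no other heart has. In a fit with the code it adds nothing to the 12 hour estimate, which then rests on A3258 and A3276. With the code as a term, in a fit that leaves out the 24 hour group, 9 genes were called, namely Celf1, Arntl, Col5a3, Slc41a3, Per2, Tef, Rhobtb1 and Fmo2, which are also called without it, and Myl7, which is not. Of 63 called genes named in the text, 55 were not called in that fit, and their values there are given below where they moved by more than 1.5 times. The part of the code in the other differences was not tested further.

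**Figure D2:**
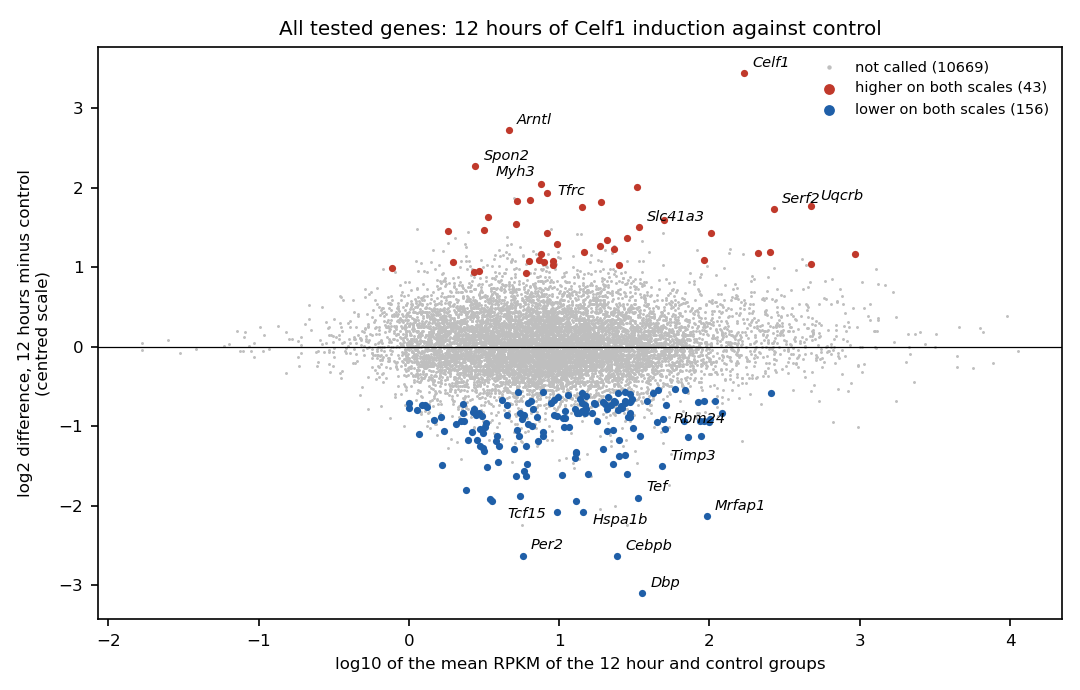
Each point is 1 tested gene, with the log10 of its mean RPKM over the 6 hearts on the x axis and its centred log2 difference (12 hours minus control) on the y axis. The 43 red points rose and the 156 blue points fell on both scales, and Celf1 at 3.44 and Dbp at -3.10 mark the ends.

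Celf1 (gene ID 13046, listed as Cugbp1; mm9 chr2:90780539-90859654, plus strand) had 33.8, 36.1 and 33.3 RPKM in the controls and 351, 219.7 and 345 RPKM in the 12 hour mice. The groups did not overlap, and the mean at 12 hours was 8.87 times that of the controls. The log2 difference was 3.44 ± 0.21 (limma adjusted p = 1.48e-07), and the exact 2-sided permutation test of the 6 values gave p = 0.1, the smallest that 3 against 3 allows. The cassette encodes the human protein, and how its reads were counted in the row of the mouse gene was not tested. Heart A3252 was the lowest of the 3 induced hearts.

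Promoter stretches are shown for some called genes of the clock lists and for the heat shock gene Hspa1b, which was also called. A match was also found in Cry1 (E-box) and Nfil3 (ROR element), which were not called. Sequence and start sites are from RefSeq (GRCm38.p6). It held a window of 300 bases (250 before to 50 after the start) for 8707 of the 10868 tested genes. Capitals mark the motif searched on both strands.
Arntl, ROR element (TAGGTCA), chr7:113207501-113207560, plus strand: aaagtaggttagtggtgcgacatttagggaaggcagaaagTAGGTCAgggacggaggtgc
Per1, E-box (CACGTG), chr11:69098743-69098828, plus strand: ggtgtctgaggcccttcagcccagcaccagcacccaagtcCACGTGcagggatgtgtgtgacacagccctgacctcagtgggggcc
Per3, D-box (TTATGTAA), chr4:151044823-151044910, minus strand: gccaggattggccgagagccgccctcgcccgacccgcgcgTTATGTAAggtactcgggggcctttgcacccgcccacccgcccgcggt
Tef, E-box (CACGTG), chr15:81802506-81802591, plus strand: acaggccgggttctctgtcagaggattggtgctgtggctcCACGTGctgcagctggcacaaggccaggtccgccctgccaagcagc
Tspan4, E-box (CACGTG), chr7:141476289-141476374, plus strand: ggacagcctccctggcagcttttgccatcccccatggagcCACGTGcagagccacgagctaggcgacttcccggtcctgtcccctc
Hspa1b, heat shock element (GAANNTTC), chr17:34959295-34959382, minus strand: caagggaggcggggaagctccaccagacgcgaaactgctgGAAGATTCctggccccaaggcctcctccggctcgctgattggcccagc
The E-box was in 4 of the 12 core clock genes with a window (33.3%) and in 4 of the 11 such clock output genes (36.4%). Among all tested genes with a window it was in 12%. Of the called genes with a window, 16 of the 123 that fell (13%) and 5 of the 28 that rose (17.9%) held it. The D-box and the ROR element were each in 1 of the 12 core clock genes with a window. Among all tested genes with a window the D-box was in 0.666%, the ROR element in 2.18% and the heat shock element in 6.98%. The stretches above were picked from genes with a match. A match describes these letters only, and no binding was measured here.

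Of 17 core clock genes tested, 1 rose, 6 fell and 10 were not called, and their median log2 difference was -0.25, beside 0.01 over all tested genes. In the activating arm, Arntl (mm9 chr7:120350979-120457636, plus strand) had 0.43, 0.92 and 0.85 RPKM in the controls and 8.67, 8.60 and 8.24 RPKM at 12 hours. Arntl was thus low in each control and close to 8 or 9 RPKM in each induced heart (2.72 ± 0.18 log2, limma adjusted p = 4.1e-07). Its partner Clock had 4.35, 4.17 and 4.12 RPKM against 4.25, 8.01 and 6.08 RPKM, and was not called (0.72 ± 0.18, limma adjusted p = 0.0552). Npas2, the other partner, lay under the level tested, at 0.36, 0.33 and 0.49 RPKM in the controls and 1.62, 1.56 and 1.45 RPKM at 12 hours. In the fit with no filter on low values Npas2 was 1.04 ± 0.12 log2 higher (limma adjusted p = 0.00931).

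In the repressing arm all 3 Period genes fell. Per2 (mm9 chr1:93312561-93355907, minus strand) had 10.8, 11.7 and 9.85 RPKM in the controls and 0.57, 0.48 and 0.81 RPKM at 12 hours, so that the highest 12 hour value lay far under the lowest control (-2.63 ± 0.15 log2, limma adjusted p = 7.85e-08). Per3 had 10.1, 9.32 and 9.29 RPKM against 1.4, 1.52 and 1.26 RPKM (-1.88 ± 0.16). Per1 had 25.1, 30.0 and 19.6 RPKM against 5.11, 4.18 and 8.61 RPKM (-1.60 ± 0.27), and its call was lost without control A3259 (-1.47, limma adjusted p = 0.0529). With the column code as a term Per1 stood at -0.57, Per3 at -1.70 and Per2 at -2.40, of which only Per2 was called.

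Of the cryptochromes, Cry2 fell and Cry1 was not called. Cry2 had 13.9, 15.8 and 16.9 RPKM in the controls and 5.79, 7.02 and 6.72 RPKM at 12 hours (-0.81 ± 0.15). Cry1 had 6.58, 6.09 and 4.75 RPKM against 4.26, 5.03 and 2.71 RPKM, with overlapping groups (-0.17 ± 0.19). Ciart, a repressor of the loop listed as Gm129, fell from 8.48, 7.39 and 3.92 RPKM to 1.44, 1.04 and 1.26 RPKM (-1.45 ± 0.25). Bhlhe41, an E-box repressor listed as Bhlhb3, fell from 7.50, 11.5 and 11.02 RPKM to 2.53, 2.04 and 2.05 RPKM (-1.48 ± 0.24). Its paralogue Bhlhe40 stood at -0.38 and was not called. The calls were lost without control A3259 for Ciart (-1.36, limma adjusted p = 0.0594), Bhlhe41 (-1.38, 0.0511) and Cry2 (-0.80, 0.065), and without A3280 for Cry2 (-0.75, 0.082). Ciart stood at -0.92 and Bhlhe41 at -0.49 in the fit with the column code.

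Of the nuclear receptor genes of the stabilising loop, the 3 described here were not called. Nr1d1, which encodes REV-ERB alpha, had 25.9, 23.7 and 21.0 RPKM in the controls and 21.3, 24.2 and 21.7 RPKM at 12 hours. Its difference was 0.28 ± 0.25 on the centred and -0.06 on the deposited scale, so that even its sign rested on the scale. Its exons overlap in part with those of Thra on the opposite strand, and how reads of the shared part were assigned was not tested. Overlaps with a gene on the opposite strand were also found for other genes named here. Among them are Cry2, Tef, Tspan4, Usp2, Cebpb, Jun and Uqcrb. Nr1d2 had 35.7, 30.9 and 23.5 RPKM against 12.8, 14.6 and 15.5 RPKM without passing the test on the centred scale (-0.66 ± 0.24, limma adjusted p = 0.135). Rora (-0.25) was not called.

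**Figure D3:**
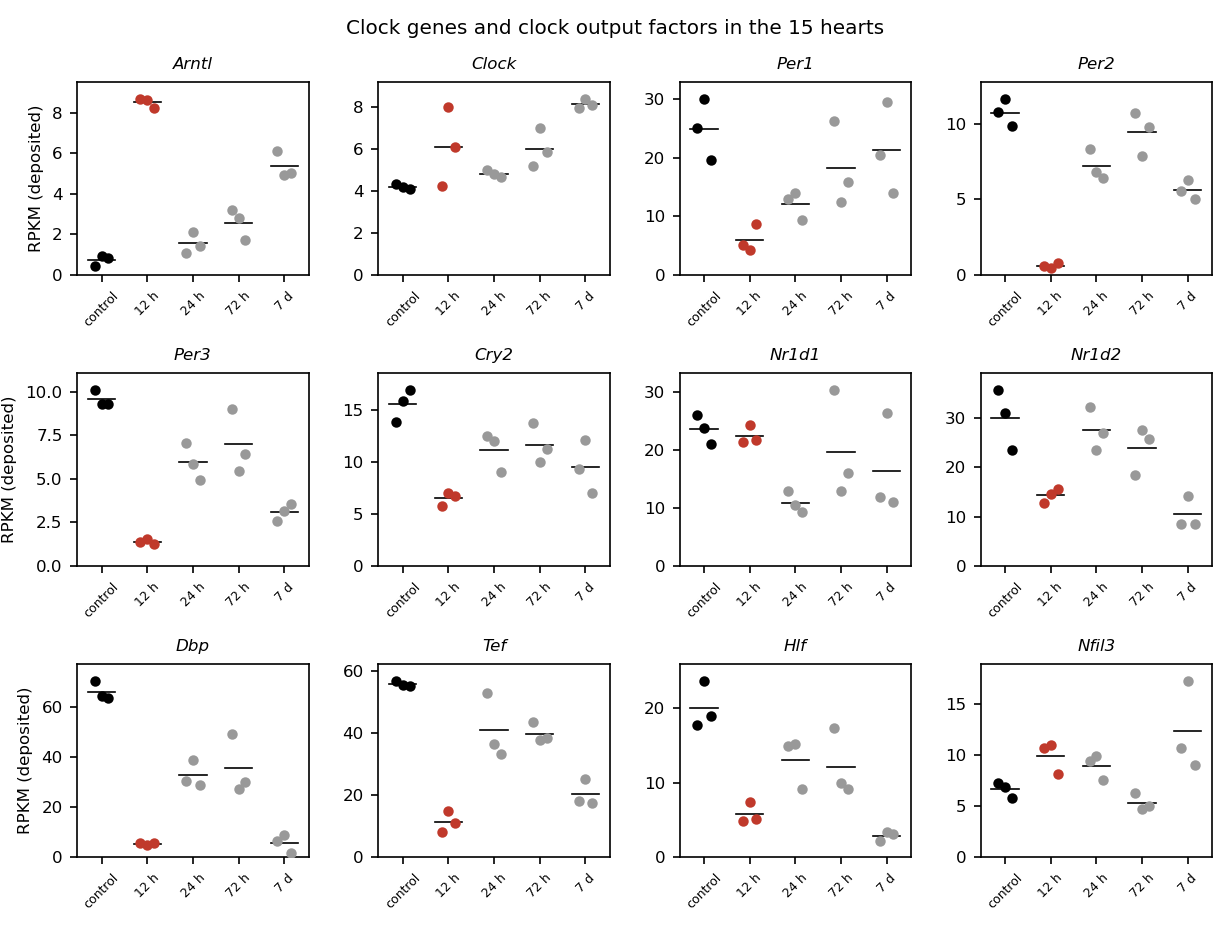
RPKM as deposited (y axis, from 0) for 12 clock and clock output genes in the 3 hearts of each group (control in black, 12 hours in red, later times in grey), with a line at each group mean. The red points lie at the top for Arntl and at the bottom for Per1, Per2 and Per3, and within the control range for Nr1d1.

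Among 13 clock output genes tested, 6 fell, none rose on both scales and 7 were not called, with a median of -0.91. Dbp (mm9 chr7:52960458-52965525, plus strand), the D-box activator, had 70.5, 64.4 and 63.6 RPKM in the controls and 5.60, 4.66 and 5.46 RPKM at 12 hours (-3.10 ± 0.31 log2, limma adjusted p = 4.39e-05). The groups were far apart, and Dbp overlaps Sphk2 on the opposite strand. Tef fell from 56.6, 55.3 and 55.0 RPKM to 8.10, 14.8 and 10.99 RPKM (-1.90 ± 0.18). Hlf fell from 17.7, 23.7 and 18.96 RPKM to 4.78, 7.32 and 5.08 RPKM (-1.33 ± 0.20). All 3 members of this factor family fell. With the column code as a term the differences were -1.94 for Dbp, -2.07 for Tef and -0.92 for Hlf, of which only that of Tef was called.

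Nfil3, the competitor of the D-box activators, had 7.25, 6.86 and 5.75 RPKM in the controls and 10.7, 10.97 and 8.09 RPKM at 12 hours. It passed on the centred scale (0.84 ± 0.17, limma adjusted p = 0.025) but not as deposited (0.51, limma adjusted p = 0.102), and so was not called. Wee1, a kinase that restrains entry into mitosis, fell from 6.04, 5.78 and 6.22 RPKM to 2.17, 1.53 and 1.41 RPKM (-1.12 ± 0.19). Tspan4, a tetraspanin, fell from 36.9, 34.9 and 35.7 RPKM to 13.0, 9.38 and 6.75 RPKM (-1.48 ± 0.21). Usp2, a deubiquitinase, was lower by -0.91 ± 0.17 log2. The call of Usp2 was lost without A3250 (-0.86, limma adjusted p = 0.0652), A3259 (-0.87, 0.0881), A3258 (-0.86, 0.0518) or A3252 (-0.88, 0.0531). Klf15 had 26.9, 28.4 and 28.4 RPKM against 10.1, 6.82 and 12.2 RPKM and missed the threshold on the centred scale (-1.12 ± 0.29, limma adjusted p = 0.0604), as did Klf9 (-0.52, limma adjusted p = 0.145).

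The clock genes had other levels again at the later times of induction. Arntl had 1.09, 2.12 and 1.44 RPKM at 24 hours, 3.18, 2.82 and 1.72 RPKM at 72 hours and 6.12, 4.93 and 5.04 RPKM at 7 days, each below the 12 hour hearts. Per2 had 8.34, 6.85 and 6.44 RPKM at 24 hours, 10.7, 7.91 and 9.80 RPKM at 72 hours and 5.56, 6.30 and 5.03 RPKM at 7 days, each above the 12 hour hearts. Dbp at 7 days (6.18, 8.84 and 1.62 RPKM) overlapped its 12 hour values, while at 24 hours it had 30.3, 39.0 and 28.9 RPKM. Celf1 had 415.8, 422.8 and 295.4 RPKM at 24 hours, 178.7, 180.9 and 158.9 RPKM at 72 hours and 29.5, 30.9 and 37.9 RPKM at 7 days. Against the mean of the 3 later times, which shares the 12 hour mice with the comparison above, Arntl was 1.53 log2 higher and Per2 lower by -2.24 log2. Both were called, as were 2087 tested genes (19.2%) in that comparison.

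Genes known as targets of the glucocorticoid receptor were lower or not called. Of 17 tested, 5 fell and none rose, with a median of -0.56; 1 of the 5 is Per1, which is also a core clock gene. Zbtb16, a zinc finger repressor, had 33.1, 29.2 and 28.5 RPKM in the controls and 8.86, 8.71 and 9.69 RPKM at 12 hours (-1.29 ± 0.15, limma adjusted p = 0.000325). Tsc22d3, which encodes the leucine zipper protein GILZ, fell from 115.2, 157.2 and 120.2 RPKM to 48.3, 44.6 and 44.2 RPKM (-1.13 ± 0.21). Cebpb, a bZIP transcription factor, had 35.5, 49.05 and 45.02 RPKM against 7.08, 1.77 and 6.79 RPKM (-2.64 ± 0.51). Heart A3252 was the lowest in Cebpb, and the call was lost without it (-2.08, limma adjusted p = 0.0602) or without control A3259 (-2.56, 0.0813) or A3280 (-2.61, 0.0784). The difference of Cebpb was -1.04 in the fit with the column code (limma adjusted p = 1). The call of Tsc22d3 was lost without A3259 (-1.0, limma adjusted p = 0.086) or A3252 (-1.05, 0.0508). Fkbp5 (-0.50) and Sgk1 (0.30), also targets of the receptor, were not called.

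Few genes of nutrient response and fuel use passed the test. Of 21 genes of fasting and nutrient response 1 fell and 20 were not called. The 1 was Foxo3, a transcription factor restrained by insulin signalling, with 20.9, 18.7 and 20.7 RPKM in the controls and 4.45, 5.50 and 6.30 RPKM at 12 hours (-1.40 ± 0.17). Pdk4, the kinase that shuts off pyruvate dehydrogenase in fasting, stood at 1.23 and was not called. Of 23 genes of glucose use only Slc2a1, the glucose transporter GLUT1, fell (-0.98 ± 0.18), and its call was lost without A3280 (-0.90, limma adjusted p = 0.082) or A3252 (-0.89, 0.05). None of 24 genes of fatty acid oxidation was called, with a median of 0.10. Outside that list, the acyl-CoA thioesterase Acot3 had 0.50, 0.63 and 0.87 RPKM in the controls and 3.93, 1.95 and 3.08 RPKM at 12 hours (1.45 ± 0.26), a call lost without A3259 (1.43, limma adjusted p = 0.0529). Acot3 too reached the level tested only through the 12 hour hearts (mean of 0.658 RPKM over the other groups), and it was called with no filter as well (limma adjusted p = 0.0221). In the fit with the code Slc2a1 stood at -0.40 and Acot3 at 0.95.

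**Figure D4:**
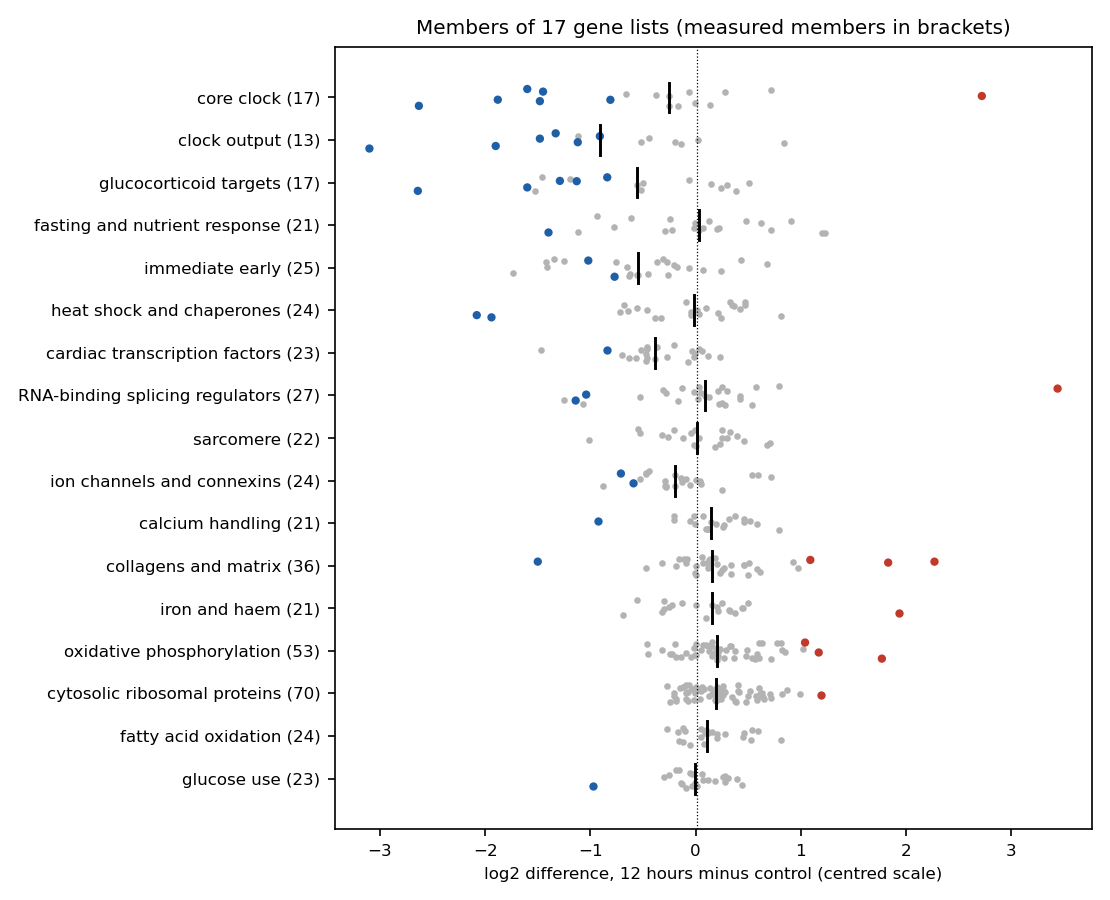
Each point is a tested member of a gene list, placed by its centred log2 difference (12 hours minus control); red and blue points rose or fell on both scales, grey points were not called, bars are list medians and the dotted line is the median of all tested genes (0.01). The clock output list (median -0.91) lies furthest to the left and the oxidative phosphorylation list (median 0.20) to the right of the dotted line.

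Among the stress genes, 2 of 24 heat shock and chaperone genes fell and none rose. They are Hspa1a and Hspa1b, near-identical copies of the inducible HSP70 whose reads can be split between them, so they are uncertain as single genes. Hspa1b had 13.2, 34.8 and 26.7 RPKM in the controls and 5.07, 2.92 and 3.09 RPKM at 12 hours (-2.08 ± 0.32), and Hspa1a differed by -1.94 ± 0.32. The call of Hspa1a was lost without control A3259, which held the highest value (-1.66, limma adjusted p = 0.052). Hspa1b stood at -1.24 and Hspa1a at -1.19 in the fit with the code. The other chaperones ranged from -0.72 (Hspb1) to 0.81, and the list had a median of -0.01. On the deposited scale alone 9 of the 24 fell and none rose, beside 1375 lower and 57 higher of all 10868 tested genes. Such counts were not particular to this list. They ran from 0 of 24 genes of fatty acid oxidation to 11 of 17 glucocorticoid targets lower on that scale. Of the 19 genes of the list with a promoter window, 11 (57.9%) held the heat shock element. Among 25 immediate early genes Jun and Nr4a3 fell, by 1.02 and 0.77 on the log2 scale, with a list median of -0.55. Jun was called in none of the 6 fits with a mouse left out and Nr4a3 in 1 of them, and Jun stood at -0.35 with the column code as a term. None of 18 inflammation, 20 p53 or 19 cell division genes was called, and of 26 genes of endoplasmic reticulum stress only Herpud1 fell (-0.95 ± 0.17), called in 3 of the 6 such fits.

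Beside Celf1, 2 of the 27 RNA-binding splicing regulators tested changed, and both fell. Rbm24, a splicing factor of heart and skeletal muscle, had 65.9, 78.9 and 76.8 RPKM in the controls and 26.8, 27.1 and 28.3 RPKM at 12 hours (-1.04 ± 0.16, limma adjusted p = 0.00317). Its paralogue Rbm38 had 105.9, 103.4 and 112 RPKM against 44.4, 29.5 and 39.3 RPKM (-1.14 ± 0.25), but was called in 1 of the 6 fits with a mouse left out and stood at -0.60 with the column code as a term. The groups of both genes were well apart. Celf2 (0.09), Mbnl1 (0.05) and Mbnl2 (-0.31), which act on many of the same exons as Celf1, were not called. None of 26 genes of mRNA decay was called.

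The contractile apparatus showed no called gene among 22 sarcomere genes, with a median of 0.01. The lowest was Tcap, the titin cap, with 1344, 1397 and 1431 RPKM in the controls and 728, 376.8 and 565 RPKM at 12 hours (-1.01 ± 0.25, limma adjusted p = 0.0507). Of 24 ion channel and connexin genes 2 fell and none rose, among them Cacna1g, a T-type calcium channel, which fell by 0.71 on the log2 scale. Jph2, which holds the T-tubule to the sarcoplasmic reticulum, was lower by -0.93 ± 0.23 and was the only 1 of 21 calcium handling genes called. Gata6 was the only 1 of 23 cardiac transcription factors that fell (-0.84 ± 0.19), in a list with a median of -0.39. Over all tested genes 1.44% fell. Cacna1g, Jph2 and Gata6 were called in none of the 6 fits with a mouse left out. After correction for GC content Jph2 stood at -0.52 and was not called. Fitted with the code, Cacna1g stood at -0.34, Jph2 at -0.09 and Gata6 at -0.35.

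Genes that rose included a developmental myosin, an iron importer and matrix genes. Myh3, the embryonic myosin heavy chain, had 3.32, 3.10 and 2.52 RPKM in the controls and 13.3, 11.5 and 11.9 RPKM at 12 hours (2.04 ± 0.29, limma adjusted p = 0.00217). No other of the 14 fetal and stress genes tested was called; Nppa stood at 0.85 and Nppb at 0.15. With the column code as a term Myh3 stood at 0.55 and was not called. Tfrc, the transferrin receptor, rose from 3.89, 3.56 and 3.28 RPKM to 11.7, 13.5 and 14.0 RPKM (1.93 ± 0.23). It was the only 1 of 21 iron and haem genes called.

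Of 36 matrix genes, 3 rose and 1 fell. Col5a3, a chain of type V collagen, had 2.17, 2.26 and 2.16 RPKM in the controls and 8.30, 8.93 and 7.64 RPKM at 12 hours (1.83 ± 0.15, limma adjusted p = 4.87e-06). Spon2, a secreted matrix protein, had 0.28, 0.46 and 0.33 RPKM against 3.08, 8.90 and 3.52 RPKM (2.27 ± 0.27). Spon2 reached the level tested only through the 12 hour hearts (mean of 0.492 RPKM over the other groups), so that it had to differ to be tested; it was also called with no filter on low values (limma adjusted p = 0.00556). Mmp14, a membrane-bound metalloprotease, rose by 1.09 ± 0.16, but was called in 2 of the 6 fits with a mouse left out. Timp3, an inhibitor of metalloproteases, fell from 86.9, 76.7 and 62.4 RPKM to 13.2, 24.2 and 24.7 RPKM (-1.50 ± 0.20); its exons overlap Syn3 on the opposite strand. At 24 hours Col5a3 had 1.65, 2.25 and 1.18 RPKM, within or under the control range, and at 7 days 15.5, 17.8 and 12.0 RPKM.

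Rhobtb1, an atypical small GTPase, and Slc41a3, a magnesium transporter, were among the 7 genes called under all of the 17 alternatives in which they were tested, with Celf1, Arntl, Col5a3, Per2 and Tef. Rhobtb1 had 46.6, 40.3 and 50.4 RPKM in the controls and 10.5, 12.2 and 10.5 RPKM at 12 hours (-1.60 ± 0.18). Slc41a3 had 18.9, 23.1 and 20.1 RPKM against 49.4, 49.6 and 42.3 RPKM (1.5 ± 0.14). At the later times Slc41a3 lay between 11.6 and 21.2 RPKM in all 9 hearts, under each 12 hour value. Fmo2, a flavin monooxygenase, had 17.6, 22.7 and 20.4 RPKM in the controls, 4.95, 6.09 and 6.01 RPKM at 12 hours and 67.5, 50.8 and 57.2 RPKM at 7 days. Its 12 hour difference was -1.34 ± 0.24, or -2.50 with the column code as a term, and its call was lost without control A3259 (-1.27, limma adjusted p = 0.068) or A3280 (-1.33, 0.0576).

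Other large falls were in genes of varied roles. Mrfap1 had 141.1, 161.3 and 180.5 RPKM in the controls and 52.2, 18.7 and 21.6 RPKM at 12 hours (-2.13 ± 0.36). Tcf15, a bHLH factor expressed in cardiac endothelium, had 16.9, 15.0 and 18.8 RPKM against 4.0, 1.57 and 2.15 RPKM (-2.08 ± 0.33). The groups of both were well apart, yet with the column code as a term Mrfap1 stood at -0.73 and Tcf15 at -0.41, neither called. Nrgn (-1.94), Il17d (-1.92) and Cys1 (-1.81) also fell, with -1.51, -0.38 and -1.03 in that fit; Il17d was not called with a pseudocount of 0.1 either. Klf13 (-1.63), Dact3 (-1.63) and Zfp771 (-1.62) fell too, with -0.64, 0.19 and -0.34 in that fit, so that Dact3 changed sign. Klf13 and Zfp771 were called in 1 and Dact3 in none of the 6 fits with a mouse left out. Map3k6 (-1.18) and Srxn1 (-1.12) fell at 12 hours, and at 7 days their log2 differences from control were 2.12 and 0.83. The call of Map3k6 was lost without control A3259 (-1.06, limma adjusted p = 0.0578) and after GC correction (-0.87, 0.0854). Srxn1 was called in 1 of the 6 fits with a mouse left out, and stood at -0.67 with the column code as a term.

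Mitochondrial and ribosomal genes had medians above 0 on the centred scale, with few calls. Of 53 genes of oxidative phosphorylation 3 rose and none fell, with a median of 0.20 on the centred and -0.16 on the deposited scale, so that the direction of the list as a whole rests on the scale. Over all tested genes 0.396% rose and 1.44% fell. Uqcrb, a small subunit of complex III, had 347.5, 205 and 221.9 RPKM in the controls and 709.8, 457.1 and 917.5 RPKM at 12 hours (1.77 ± 0.40). Cox7b rose by 1.17 ± 0.25 and Ndufa5 by 1.04 ± 0.18. Of 70 cytosolic ribosomal protein genes Rps27 rose (1.19 ± 0.21), and the list's medians were 0.19 and -0.17. Serf2 rose from 145, 147.2 and 155.6 RPKM to 423.1, 408.2 and 333 RPKM (1.73 ± 0.27), Cox20 by 2.01 and Eloc by 1.59. The exons of Serf2 overlap 2310003F16Rik on the same strand and Serinc4 on the opposite strand. In the 6 fits with a mouse left out, Serf2 was called in all, Uqcrb, Cox7b and Eloc in 2 and Ndufa5, Rps27 and Cox20 in 1. In the fit with the code none of these was called, and Serf2 stood at 0.66, Uqcrb at 0.36, Cox7b at 0.34, Ndufa5 at 0.66, Rps27 at 0.47, Cox20 at 0.39 and Eloc at 0.65.

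The other genes among the 15 largest rises were Sp140 (1.84), Polr2k (1.82), Rbis (1.75), Rfesd (1.63) and A530032D15Rik (1.54). Of the 6 fits with a mouse left out, Sp140 was called in 5, Rfesd in 2 and Polr2k, Rbis and A530032D15Rik in none. Fitted with the code, they stood at 1.25 (Sp140), 1.90 (Polr2k), 0.24 (Rbis), 0.84 (Rfesd) and 0.70 (A530032D15Rik), none of them called. Polr2k, a small subunit shared by the RNA polymerases, and Rbis were also not called after GC correction.

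GC content moved with these differences. The median GC content of the exons was 43.4% for the 40 genes that rose and had an annotation, 55.6% for the 153 that fell and 50.2% for all 10607 with a value. Of those that rose 25 lay in the lowest tertile of GC content, and of those that fell 106 lay in the highest. Across genes, which are not independent replicates, the Spearman correlation of the difference with GC content was -0.57. After each library was corrected for GC content 173 genes were called, 116 of them among the 199. Arntl (2.67), Per2 (-2.50), Dbp (-2.86), Tef (-1.85) and Serf2 (1.74) were called there, whereas Cox7b (0.82, limma adjusted p = 0.131) and Eloc (0.87, 0.14) were not.

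Markers of the cell types that a ventricle can hold were compared as summed RPKM, first on the deposited scale, on which the 12 hour libraries lie lower as a whole, and no marker gene was called on both scales. The 10 ventricular muscle markers summed to between 46038 and 47668 in the controls and between 32808 and 41163 at 12 hours, all 10 detected. On the centred scale these sums overlapped (40965 to 42476 against 39685 to 48732), and the median log2 difference of the markers was 0.07, beside -0.29 as deposited. In bulk tissue fewer cells of a type and less RNA per cell cannot be told apart. Endothelial (327 to 344 against 246 to 334), fibroblast (579 to 682 against 488 to 675), mural (222 to 295 against 216 to 272) and macrophage sums (151 to 186 against 124 to 172) were lower or overlapped as deposited. On the centred scale endothelial (287 to 316 against 293 to 357), fibroblast (515 to 599 against 591 to 721), mural (197 to 259 against 256 to 296) and macrophage sums (139 to 165 against 150 to 196) overlapped. Adipocyte markers (637 to 786 against 515 to 605) and skeletal muscle markers (1319 to 1635 against 816 to 1129) lay lower at 12 hours as deposited and overlapped on the centred scale (559 to 707 against 616 to 716, and 1209 to 1455 against 871 to 1337). Only 2 of the 8 adipocyte markers reached the level tested, and the adipocyte sum rests on these 2. Of the others, Adipoq had 0.89, 1.92 and 0.33 RPKM in the controls against 1.09, 1.38 and 0.87 RPKM at 12 hours. Among the 10 skeletal muscle markers 7 were tested, and they ran from -1.35 to 0.64, with 3 above and 4 below 0. Atrial (111 to 124 against 124 to 161) and erythroid and platelet markers (1928 to 3237 against 2958 to 3931) overlapped as deposited, and lay higher at 12 hours on the centred scale (102 to 111 against 147 to 172, and 1694 to 2974 against 3502 to 4196). Lymphocyte sums were 1.35 to 2.93 against 1.66 to 2.26, and neutrophil sums 0.76 to 2.65 against 1.82 to 9.55, with Mmp8 at 0 in all 6 hearts; the skeletal muscle marker Myf6 was also at 0. The part of cell makeup in the gene differences was not tested.

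**Figure D5:**
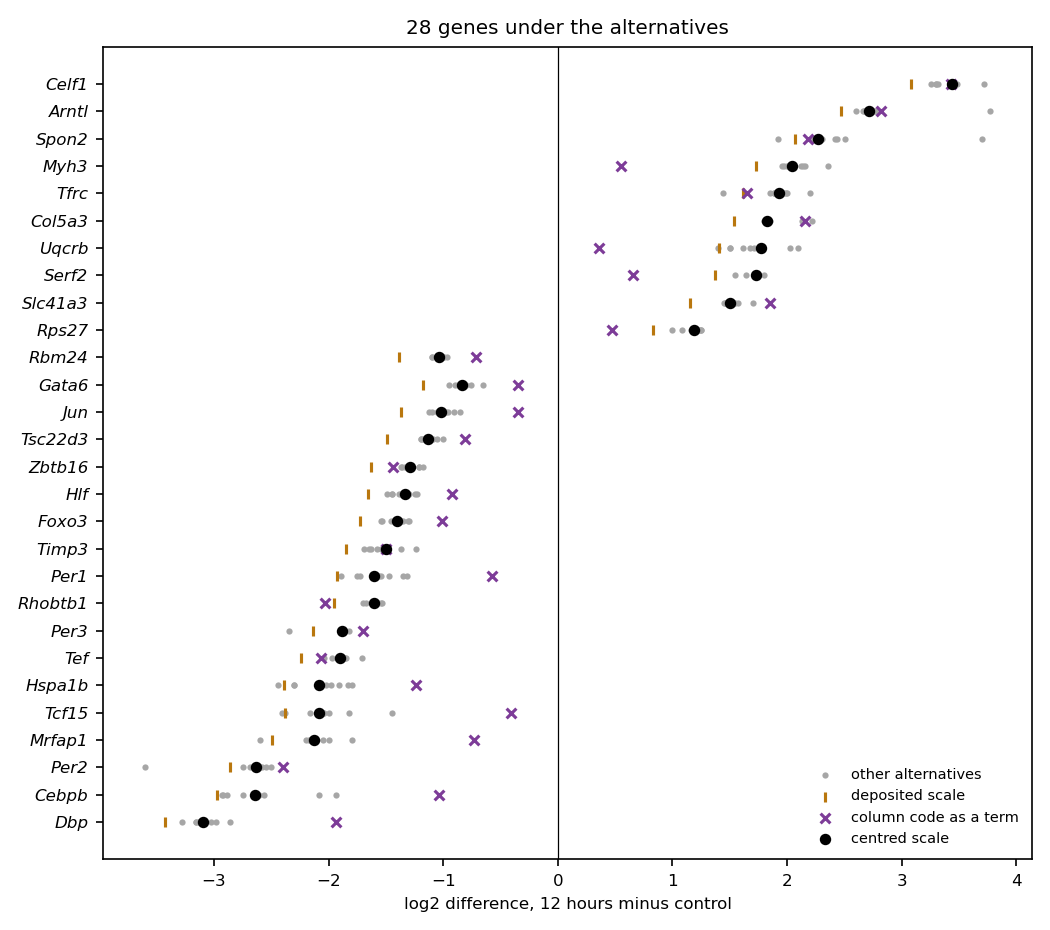
Log2 difference (12 hours minus control) of 28 named genes on the centred scale (black), on the deposited scale (orange bars), with the column code as a term (purple crosses) and under the other alternatives (grey). Celf1, Arntl, Col5a3, Slc41a3, Per2, Tef and Rhobtb1 have crosses far from 0 on their side, at 1.85 to 3.43 for the genes that rose, while those of Tcf15 (-0.41), Jun (-0.35) and Gata6 (-0.35) lie near 0.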

How the data were processed

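Polyadenylated RNA of 15 ventricles was sequenced as paired reads, per the labels' protocols. Per the submitters' processing notes, TopHat and Bowtie and the mm9 build were used. The authors deposited RPKM per gene in 20 columns, and the 2 columns of each of 5 mice were averaged. Numbers of reads are not given, and steps between low values gave no clear depth, so the depth is not known and no counting interval is printed; 2292 to 2723 of 16042 genes were listed at 0 in each of the 6 hearts. From the deposited RPKM, log2(RPKM + 1) was computed for the 10868 genes with a mean of at least 1 RPKM and tested with limma 3.58.1 in R 4.3.3 (empirical Bayes with trend, all 15 mice in 5 groups), on the deposited scale and with each library divided by its median ratio to the geometric mean library; p-values were Benjamini-Hochberg adjusted over all tested genes. The column code fit used 16 columns without the 24 hour group, with the mouse as a block (correlation 0.292). The scripts were tested on simulated data. Symbols follow RefSeq by gene ID (15988 matched); exon GC content and coordinates (mm9) are from GENCODE.

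The genes named were drawn from Celf1, clock and clock output genes, the 15 largest rises and falls among the called genes, up to 3 per other list, and the 5 largest in each direction against the later times; Rhobtb1, Mmp14 and the uncalled list members quoted with a value were chosen after their values were seen. The comparison and the gene lists were chosen with earlier results of these data known. Alternatives were the pseudocount, filters, scaling, GC correction, column code, groups fitted and each mouse left out. The limma p-values set each difference against the spread between mice, pooled over the 5 groups and moderated across genes. In the column code fit the repeat columns of a mouse were kept, with the mouse as a block. A few list members are not reported here by name.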

Additional observations from a re-analysis of the deposited data

Results flagged for a closer look

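The genes below differed between 12 hours and control and also, in the same fit, between 12 hours and the mean of 24 hours, 72 hours and 7 days (limma adjusted p below 0.05 on both scales in each comparison). The second comparison called 19.2% of all tested genes, reuses the 12 hour mice and is no independent support. Values in brackets are centred log2 differences, 12 hours minus the mean of the later times. Celf1 stood at 1.45, a mean that joins high levels at 24 and 72 hours with control levels at 7 days.

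Among clock and clock output genes the differences were Arntl (1.53), Per1 (-1.14), Per2 (-2.24), Per3 (-1.19), Cry2 (-0.42), Ciart (-1.03), Bhlhe41 (-1.03), Dbp (-1.39), Tef (-1.23), Tspan4 (-1.29) and Wee1 (-1.43). Among genes of glucocorticoid, nutrient and stress response they were Zbtb16 (-1.20), Tsc22d3 (-0.70), Cebpb (-1.38), Foxo3 (-0.77), Slc2a1 (-0.75), Hspa1a (-1.01), Hspa1b (-1.08), Nr4a3 (-0.75), Srxn1 (-1.62) and Map3k6 (-2.02). Among matrix, myosin and mitochondrial genes they were Timp3 (-1.10), Spon2 (2.13), Col5a3 (1.11), Myh3 (2.14), Cox7b (0.85) and Ndufa5 (1.03). The remaining genes were Serf2 (1.15), Mrfap1 (-1.49), Slc41a3 (1.64), Acot3 (1.45), Fmo2 (-2.0), Rhobtb1 (-0.94), Klf13 (-1.15), Cys1 (-1.14), Ccn5 (-1.72), Sp140 (0.95) and A530032D15Rik (0.98). Among the 5 group means as deposited, the 12 hour mean was the highest for Arntl, Spon2, Myh3, Slc41a3, Acot3, Serf2, Cox7b and Ndufa5. It was the lowest for Per2, Per3, Fmo2 and Map3k6. The same held for most other genes above with a negative difference, such as Per1, Tef, Wee1 and Zbtb16. Spon2 and Acot3 reached the level tested only through the 12 hour hearts. All genes above were chosen by their difference from the later times, so these ranks are no separate result.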

How the results depend on the processing

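Celf1 rose under all 17 alternatives (3.08 to 3.72 log2), and of the other called genes named in the text only Dact3 changed sign under any (-1.63, and 0.19 with the column code as a term). The number of genes called on both scales (199, of which 43 higher and 156 lower) moved more. It was 1432 (57 higher, 1375 lower) on the deposited scale alone, and 73 were higher on the centred scale alone. The 2 compared groups fitted alone gave 613 (188 and 425), the first column of each mouse 104 (26 and 78), and the column code as a term 9 (5 and 4). Leaving out 1 mouse gave 36 to 106 genes, 10 to 36 higher and 26 to 91 lower. The cause was not tested. The pseudocount of 0.1 (177 genes), no filter (149), a mean of at least 5 RPKM (164), quantile normalization (194), robust empirical Bayes (199) and GC correction (173) left the count within 1.5 times. Apart from the column code, 31 genes were called under every alternative in which they were tested, 9 higher and 22 lower. Against the later times 2087 genes were called, 3463 on the deposited scale alone, 3271 after GC correction and 1363 to 1926 with 1 mouse left out. Depth was not known from the values, so counting error could not be separated from the spread between mice. No paired analysis was possible because the mouse numbers in the labels are unique to each mouse.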
